A study of Mus musculus with 6 samples.

Results

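The 10 genes described here encode the core of the circadian clock: the activators Clock and Arntl, the period genes Per1, Per2 and Per3, the cryptochromes Cry1 and Cry2, the REV-ERB receptors Nr1d1 and Nr1d2, and the output gene Dbp. They were chosen by gene name as activators, repressors and outputs of the clock, and all 10 were found among the 54551 genes measured in each library. RNA was sequenced from granulosa cells, the follicle cells that nourish the oocyte and make steroids, isolated on postnatal day 21 from the ovaries of C57BL/6 mice. The 3 wild-type libraries and the 3 Gm12840-/- libraries came from mice given the same hormones: PMSG (5 IU, 48 h), which makes follicles grow, and then hCG (5 IU, 6 h), which acts like the hormone surge that triggers ovulation. Gm12840 is the gene named as deleted in the knockout, and the labels do not give the extent of the deletion, the hour of the day of collection, or whether each library was a separate animal. The p-values therefore measure only the spread between these libraries.

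The molecular clock is a feedback loop of transcription. CLOCK and BMAL1, the product of Arntl, bind E-box sequences as a pair and switch on the Per, Cry, Nr1d and Dbp genes. PER and CRY proteins return to the nucleus and block that pair, while the REV-ERB proteins, made by Nr1d1 and Nr1d2, repress Arntl and Clock through ROR elements. DBP acts on D-box sequences. In the ovary the clock has been studied as one input to the timing of ovulation, and Per1 is also known as an early target of cAMP signalling in several tissues.

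The promoters are shown first because the elements of the loop are sequences of this kind. RefSeq windows of 250 bases before and 50 bases after a start site (GRCm38.p6, the assembly that mm10 names) were held for 9 of the 10 genes, in 13 windows; Per2 was not matched. The windows were searched on both strands for the E-box CACGTG, the E-prime box CACGTT, the D-box TTATGTAA or TTATGCAA, the ROR element TAGGTCA or TGGGTCA, the cAMP response element TGACGTCA and its half-site TGACG, which the full element contains. The 4 windows below hold matches of the E-box, the D-box and the ROR element, and capitals mark every match. Per1 (chr11:69098699-69098998, plus strand) holds a half-site at -246, an E-box at -166 and a D-box at -24 from the start site. Per3 (chr4:151044616-151044915, minus strand) holds 2 D-boxes upstream of the start site. Cry1 (chr10:85185005-85185304, minus strand) holds an E-prime box at -79, an E-box at -60 and a half-site at -8. Arntl (chr7:113207261-113207560, plus strand) holds a ROR element at 31.
Per1: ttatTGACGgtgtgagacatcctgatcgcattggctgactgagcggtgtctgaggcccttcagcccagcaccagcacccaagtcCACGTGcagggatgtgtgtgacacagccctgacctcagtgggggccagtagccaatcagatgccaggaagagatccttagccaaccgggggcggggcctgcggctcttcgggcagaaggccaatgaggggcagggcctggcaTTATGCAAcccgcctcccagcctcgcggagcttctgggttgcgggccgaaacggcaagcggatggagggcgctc
Per3: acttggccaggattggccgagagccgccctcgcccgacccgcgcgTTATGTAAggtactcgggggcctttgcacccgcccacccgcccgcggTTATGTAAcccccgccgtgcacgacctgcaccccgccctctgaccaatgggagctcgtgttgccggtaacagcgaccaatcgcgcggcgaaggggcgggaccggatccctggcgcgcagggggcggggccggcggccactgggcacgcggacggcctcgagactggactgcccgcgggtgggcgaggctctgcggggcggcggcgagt
Cry1: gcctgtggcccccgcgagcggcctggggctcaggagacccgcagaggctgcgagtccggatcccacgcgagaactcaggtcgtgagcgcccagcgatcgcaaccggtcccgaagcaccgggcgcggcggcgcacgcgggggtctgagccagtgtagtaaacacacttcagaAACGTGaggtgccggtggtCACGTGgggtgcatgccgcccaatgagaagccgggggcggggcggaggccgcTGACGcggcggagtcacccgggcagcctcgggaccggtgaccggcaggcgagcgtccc
Arntl: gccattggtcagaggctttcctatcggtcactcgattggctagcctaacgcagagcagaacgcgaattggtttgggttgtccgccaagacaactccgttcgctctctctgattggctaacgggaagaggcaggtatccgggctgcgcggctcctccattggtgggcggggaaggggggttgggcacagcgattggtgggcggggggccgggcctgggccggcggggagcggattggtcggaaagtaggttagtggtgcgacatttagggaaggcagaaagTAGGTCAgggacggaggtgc

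An E-box was present in windows of 2 of the 9 genes (Per1 and Cry1), and in 7.15% of all 32851 RefSeq windows of that length. Counts here are of genes with a match in any of their windows, 13 in all, as some genes had more than 1. The percentages are of single windows, so counts and percentages are not like for like. A D-box was present in 2 (Per1 and Per3), against 1.66% of all windows, and the ROR element in 1 (Arntl), against 6.45%. The E-prime box was present in Cry1, Cry2 and Nr1d1, against 4.68% of all windows. The half-site was present in Per1, Cry1 and Cry2, against 20.8%, and the full cAMP response element in none of the 9, against 1.79%. A match is a string of letters in a window, and the measurements here do not tell which start site the granulosa cells used.

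Whole reads could be recovered from the deposited FPKM values, and their number ran from 16392098 to 19465847 per library. Gm12840, the targeted gene, stood at 1.83, 0.566 and 0.365 FPKM in wild-type-labelled libraries 1 to 3 and at 0.426, 0.611 and 1.45 FPKM in knockout-labelled libraries 1 to 3. The means, 0.919 ± 0.792 and 0.829 ± 0.546 FPKM (SD, n = 3 each), lay within the spread (exact two-sided permutation p = 0.9, where 0.1 is the smallest possible). The deletion was thus not visible in this gene's level, on 5 to 17 reads, and every direction below rests on the labels. On the first principal component given next, replicate 3 of each label lies with the other label, although not every gene or ratio below follows that placement. Whether those labels were exchanged was not tested, and the fold changes would differ if they were. Libraries also stood apart from others of their own label. A first principal component with 83.3% of the variance placed knockout 3 (score -55.0), wild type 1 (-50.1) and wild type 2 (-31.1) on one side, and knockout 1 (23.3), wild type 3 (42.1) and knockout 2 (70.8) on the other. Reads of mitochondrially encoded genes followed the same order of libraries: 0.146%, 0.227% and 0.311%, then 1.52%, 2.08% and 4.19%. The slope of a library's log2 values on log2 gene length was negative in the first 3 (-0.132 to -0.0840) and positive in the others (0.0387 to 0.194). Summed levels of granulosa, erythroid and oocyte markers split along the same sides, though not every marker did. All 10 granulosa markers passed the filter, and their summed level was 9321 to 12124 FPKM in knockout 3, wild type 1 and wild type 2 against 4635 to 6438 FPKM in the others. Most of that sum was Inha, at 8032 to 10808 FPKM against 3973 to 5711 FPKM. Gja1, Fshr, Inhbb and Nr5a2 instead rose with the component's score (r = 0.81, 0.55, 0.53 and 0.38), and the other granulosa markers fell. Summed erythroid markers stood at 2793 to 4455 FPKM against 473 to 756 FPKM, and oocyte markers at 385 to 438 FPKM against 221 to 274 FPKM. Of the oocyte markers, Bmp15 went the other way, at 2.97 to 6.28 FPKM against 10.7 to 24.4 FPKM. Their part in the results below was not tested. In such bulk samples, fewer cells of a type and less RNA per cell cannot be told apart.

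Per1 was the most abundant of the 10 in these granulosa cells. FPKM values are per gene length, so levels can be set side by side between genes, although libraries differed in their slope on gene length. Per1 averaged 36.0 ± 9.09 FPKM over the 6 libraries (SD, n = 6) and exceeded Cry1, the next gene, in all 6, with no overlap between the ranges of the pair. Cry1 (12.3 ± 2.31 FPKM) was above Cry2 (8.77 ± 1.99 FPKM) in all 6 libraries, and Cry2 above Nr1d1 (4.93 ± 1.82 FPKM) in all 6, although the ranges over libraries overlapped. Clock (3.65 ± 2.71 FPKM), Dbp (3.56 ± 0.749 FPKM) and Nr1d2 (3.54 ± 1.92 FPKM) could not be ordered beyond their spread: Clock exceeded Dbp in 3 of 6 libraries and Dbp exceeded Nr1d2 in 4 of 6. Arntl (1.91 ± 0.792 FPKM) was above Per2 (1.57 ± 1.69 FPKM) in 4 of 6. Per3 was the lowest, at 0.438 ± 0.131 FPKM. Among the 12495 genes that passed the filter of more than 1 FPKM in at least 3 libraries, the mean of Per1 lay at the 86.0th percentile, that of Cry1 at the 66.6th and that of Arntl at the 16.8th. Of the clock genes, 9 passed this filter, Per2 only through its 3 highest libraries, while Per3 was tested in a fit without it.

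**Figure D1:**
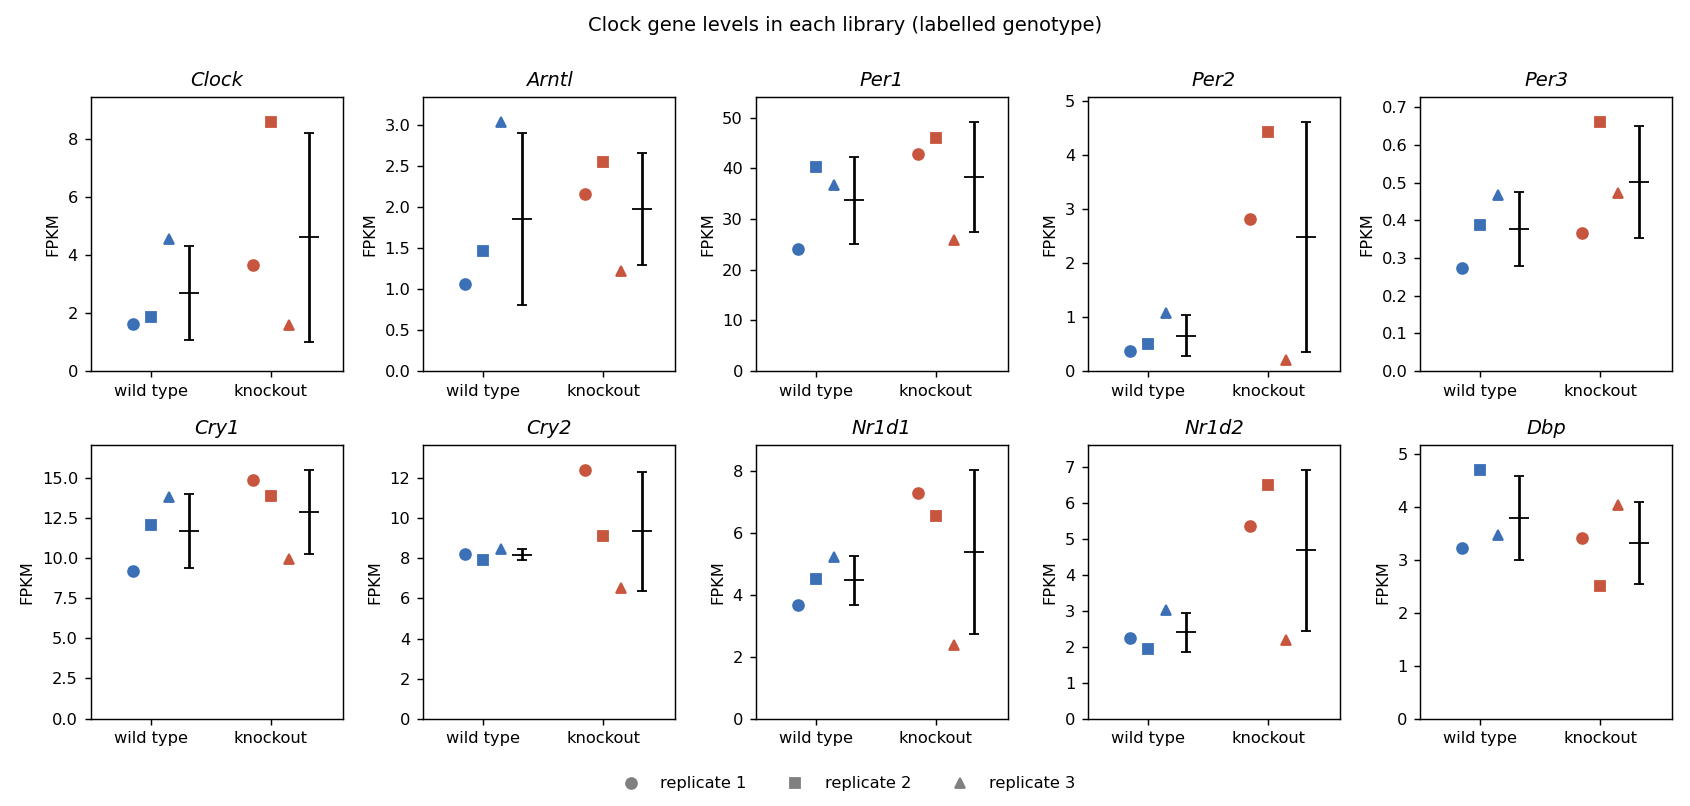
Each panel plots 1 clock gene, with FPKM on a linear axis from 0 and the labelled genotype on the horizontal axis; points are single libraries, shaped by replicate number, and bars give the mean and SD of 3 libraries. The groups overlap in all 10 panels, and Per2 spans the widest relative range, from 0.211 to 4.42 FPKM.

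The comparison of the libraries labelled knockout and wild type called no clock gene. limma on log2(FPKM + 1) called 0 of the 9 that passed the filter at an adjusted p under 0.05, as it called 0% of all tested genes; at an unadjusted p under 0.05 it gave 0 of the 9, against 0.728% of all (91 genes). Run on recovered reads, limma-voom likewise called 0 genes, with 75 at an unadjusted p under 0.05. The labelled groups overlapped for all 10 clock genes, where 1.45% of tested genes were higher and 2.08% lower in every library labelled knockout. Of the 9, 8 had a positive log2 fold change, where 45.0% of all tested genes did, and their median was 0.13 against -0.04 for all. That count of positives was 5 of 9 without wild type 1 or without knockout 2, and 6 of 9 without knockout 1 or with each library's slope on gene length in the model. The median ran from 0.02 to 0.42 with 1 library left out and was 0.01 with the slope. The clock genes share their libraries and are not separate observations. Of the 36 pairs of clock genes without Dbp, 35 had a positive Pearson r over the 6 libraries (median 0.74). Of the 9 pairs with Dbp, 0 had a positive r (median -0.45). Levels of the clock genes other than Dbp rose with the first component's score, from r = 0.57 for Cry2 to 0.98 for Clock. Dbp fell with it (r = -0.67). The share of positive pairs among all tested genes was not computed, so these counts have no background beside them.

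**Figure D2:**
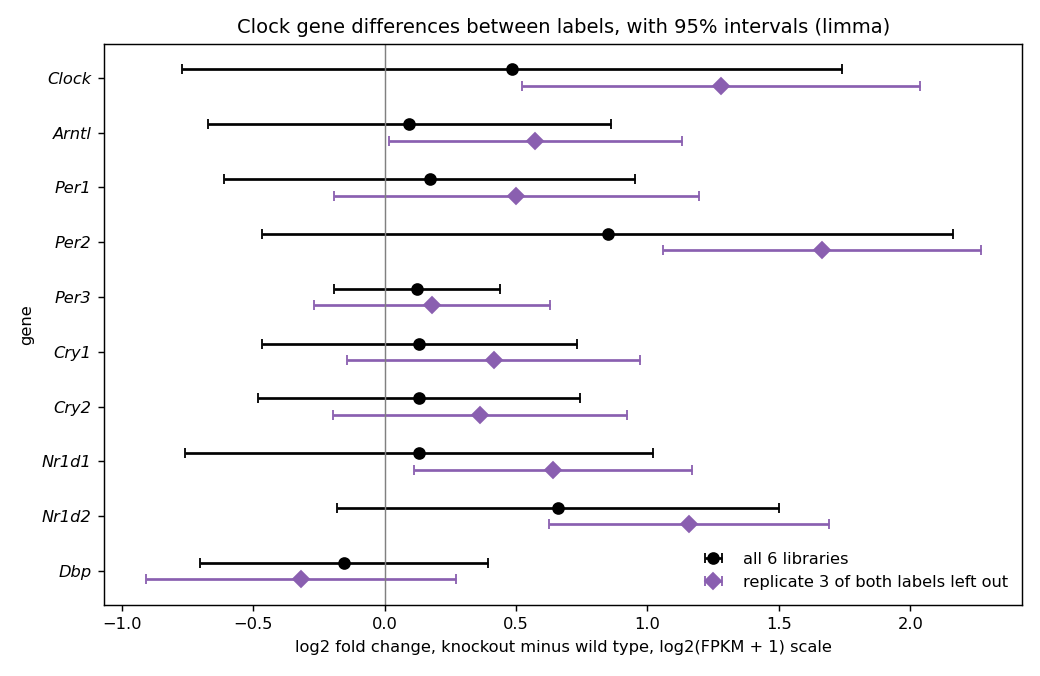
For each clock gene (vertical axis), points give the log2 fold change of knockout minus wild type on the log2(FPKM + 1) scale with its 95% interval from limma, over all 6 libraries and with replicate 3 of both labels left out. Over all 6 libraries every interval includes 0, and 8 of the 9 genes that passed the filter and Per3 lie above 0.

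Of the activators, Arntl was below Clock in all 6 libraries, and Clock spread more widely than Arntl. Clock (ENSMUSG00000029238, chromosome 5, 76209868 to 76304792 on the minus strand in mm10) encodes the histone acetyltransferase partner of BMAL1. It stood at 1.63, 1.87 and 4.55 FPKM in wild-type-labelled libraries 1 to 3 and at 3.67, 8.58 and 1.57 FPKM in knockout-labelled libraries 1 to 3. Knockout 2 held the highest level and knockout 3 the lowest, so the extremes carried the same label. Group means came to 2.69 ± 1.62 FPKM in wild type and 4.60 ± 3.60 FPKM in knockout (SD, n = 3 each). The log2 fold change was 0.48 ± 0.53 (SE; adjusted p = 0.993 by limma). Clock has the longest exon sequence of the 10, at 13727 bases. Over the 6 libraries its levels followed the order of the first principal component and of the mitochondrial reads, whose part in the result was not tested. Arntl (ENSMUSG00000055116, chromosome 7, 113207465 to 113314126, plus strand) stood at 1.06, 1.46 and 3.03 FPKM against 2.16, 2.54 and 1.22 FPKM. Its highest value was in wild type 3, its lowest in wild type 1, and the log2 fold change was 0.09 ± 0.32 (adjusted p = 0.993 by limma).

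Among the period genes, whose proteins are the rate-setting repressors of the loop, Per2 varied most. Per2 (ENSMUSG00000055866, chromosome 1, 91415982 to 91459324, minus strand) stood at 0.368, 0.505 and 1.08 FPKM in wild-type-labelled libraries 1 to 3, and at 2.81, 4.42 and 0.211 FPKM in knockout-labelled libraries 1 to 3. These levels rest on 32, 50 and 138 reads against 308, 473 and 19 reads. Counting error does not span that range: the 95% Poisson interval was 0.127 to 0.329 FPKM in knockout 3 and 4.03 to 4.83 FPKM in knockout 2. Knockout 1 and 2 lay above every library labelled wild type, whereas knockout 3 lay below all of them. The highest library was 21.0 times the lowest, and the SD over libraries on the log2 scale (0.88) exceeded that of 92.7% of tested genes. The log2 fold change was 0.85, with a 95% interval of -0.47 to 2.16 (adjusted p = 0.993 by limma).

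Per1 moved over a much narrower range than Per2. Per1 (ENSMUSG00000020893, chromosome 11, 69095217 to 69109960, plus strand) stood at 24.0, 40.3 and 36.8 FPKM against 42.9, 46.1 and 25.9 FPKM, on 2009 to 4744 reads. Wild type 1 and knockout 3 were low and the other 4 libraries lay at 36.8 FPKM or above. The log2 fold change was 0.17 ± 0.33 (adjusted p = 0.993 by limma). Per3 (ENSMUSG00000028957, chromosome 4, 151003652 to 151044665, minus strand) stood at 0.273, 0.388 and 0.467 FPKM against 0.367, 0.660 and 0.473 FPKM, on 39 to 116 reads. It lies on the chromosome of Gm12840, 33.3 Mb away, and its log2 fold change was 0.12 ± 0.13 (adjusted p = 0.958 by limma without a filter).

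The cryptochromes, which bind and silence the CLOCK and BMAL1 pair, stayed within a 2-fold range. Cry1 (ENSMUSG00000020038, chromosome 10, 85131700 to 85185064, minus strand) stood at 9.20, 12.0 and 13.8 FPKM against 14.9, 13.9 and 9.92 FPKM. Its lowest libraries were again wild type 1 and knockout 3. Cry2 (ENSMUSG00000068742, chromosome 2, 92403646 to 92434043, minus strand) was nearly level in wild-type-labelled libraries, at 8.21, 7.90 and 8.47 FPKM, and stood at 12.4, 9.10 and 6.51 FPKM in knockout-labelled libraries. The 3 wild-type values thus lay inside the range of the knockout values. Their log2 fold changes were 0.13 ± 0.25 for Cry1 and 0.13 ± 0.26 for Cry2 (adjusted p = 0.993 by limma for each).

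The REV-ERB receptors are haem-binding repressors of Arntl. Nr1d1 (ENSMUSG00000020889, chromosome 11, 98767932 to 98775333, minus strand) stood at 3.66, 4.52 and 5.23 FPKM against 7.28, 6.54 and 2.36 FPKM, with knockout 3 below and knockout 1 and 2 above every library labelled wild type. Its log2 fold change was 0.13 ± 0.37 (adjusted p = 0.993 by limma). The gene shares 263 exonic bases, 8.55% of its exon length, with Thra on the opposite strand, and the library kit does not mark strand; Thra stood at 4.61 to 7.22 FPKM, highest in knockout 3. Nr1d2 (ENSMUSG00000021775, chromosome 14, 18204054 to 18239127, minus strand) stood at 2.25, 1.95 and 3.01 FPKM against 5.36, 6.50 and 2.17 FPKM. Knockout 1 and 2 again lay above all libraries labelled wild type, and knockout 3 lay among them. Of the clock genes Nr1d2 had the smallest unadjusted p, 0.106, with a log2 fold change of 0.66 and a 95% interval of -0.18 to 1.50 (adjusted p = 0.993 by limma).

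Markers of stroma and smooth muscle were also higher in knockout 1 and 2 than in wild type by their median. All 9 tested of 11 such markers had a positive log2 fold change, where 45.0% of all tested genes did, by a median of 0.49, and 0 were called. All 6 tested endothelial markers (1 without overlap) and all 4 tested theca markers were positive too, each by a median of 0.18. Positive in the other cell types were 2 of 3 leukocyte, 2 of 10 granulosa, 1 of 8 oocyte and 0 of 5 erythroid markers. Of the 9 stromal and smooth muscle markers, Col1a2 and Pdgfrb were the 2 without overlap between the groups, where 1.45% of tested genes were so as higher. Myh11, below the filter, did not overlap either, at 0.622, 0.554 and 0.707 FPKM against 1.41, 1.49 and 0.986 FPKM. These 3 were named after their values were seen. The median deviation of the 9 on the log2 scale was -0.12, -0.48 and -0.05 in wild-type-labelled libraries 1 to 3 and 0.41, 0.38 and -0.13 in knockout-labelled libraries 1 to 3. The summed level of all 11 listed markers did not follow that order. It was 62.0 to 119 FPKM in wild-type-labelled libraries and 89.7 to 114 FPKM in knockout-labelled libraries. Its largest part was Acta2, at 83.2, 37.1 and 27.2 FPKM against 52.5, 34.6 and 75.1 FPKM. None of the 11 markers was listed at 0 throughout. Their part in the values of Nr1d2 was not tested.

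Dbp, a PAR bZIP transcription factor and the output gene of the set, had the one negative log2 fold change among the 10. Dbp (ENSMUSG00000059824, chromosome 7, 45705088 to 45710203, plus strand) stood at 3.22, 4.70 and 3.46 FPKM in wild-type-labelled libraries and at 3.41, 2.50 and 4.04 FPKM in knockout-labelled libraries. It was lowest in knockout 2, where Clock, Per1, Per2, Per3 and Nr1d2 were at their highest. Its log2 fold change was -0.15 ± 0.23 (adjusted p = 0.993 by limma). Dbp has the shortest exon length of the set, 2993 bases, and 18.0% of it is shared with exons of Sphk2 on the opposite strand. Sphk2 was more abundant than Dbp, at 16.9, 23.5 and 14.0 FPKM against 15.2, 10.3 and 23.9 FPKM, and was likewise lowest in knockout 2. How the authors' counting dealt with shared bases is not given in the sources used here, so the level of Dbp is uncertain.

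**Figure D3:**
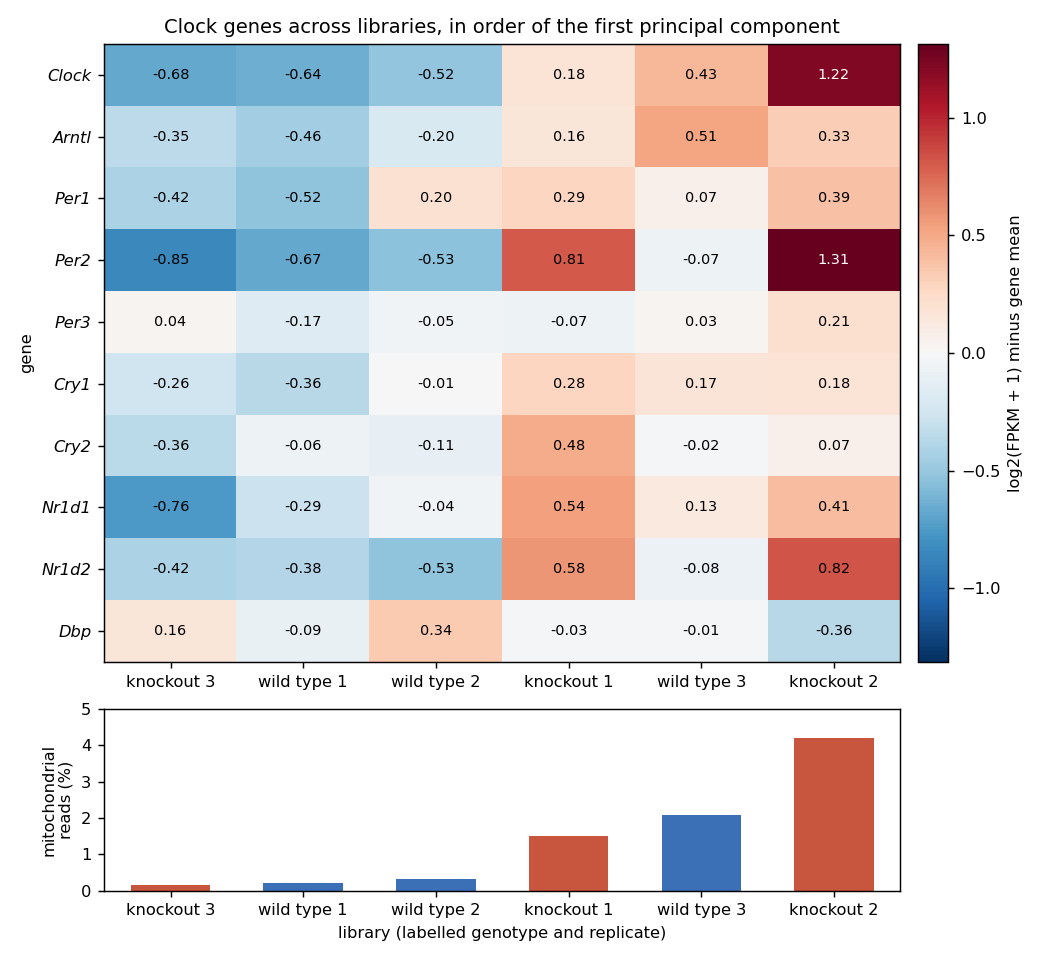
The upper panel gives each clock gene's log2(FPKM + 1) minus its mean over 6 libraries, with libraries ordered by the first principal component (knockout 3 lowest, knockout 2 highest); the lower panel gives the percentage of reads from mitochondrially encoded genes in the same order. Clock rises along that order from -0.68 to 1.22. Per2 has its lowest and highest values at the same ends (-0.85 and 1.31), but stands at 0.81 in knockout 1 and -0.07 in wild type 3. Dbp stands at -0.36 in knockout 2.

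The spread between libraries was thus shared unequally among the clock genes. On the log2 scale the SD of Clock (0.75) exceeded that of 87.6% of tested genes and that of Nr1d2 (0.57) exceeded 74.1%. Arntl (0.39) exceeded 52.3%, whereas Cry1 (0.26) exceeded 30.2%, Cry2 (0.28) 32.9% and Dbp (0.24) 25.6%. The genes whose pattern was most like each clock gene were taken as the 3 with the highest Pearson r of log2(FPKM + 1) over the 6 libraries, a description of points that share their libraries. Ncor1, a corepressor that REV-ERB proteins recruit, was among the 3 most like Clock (r = 0.999, n = 6), but 1525 genes had an r over 0.95 with Clock. Skil and Slc25a37 were among the 3 most like Per2 (r = 0.994 and 0.997), with 218 genes over 0.95. Pdgfra, a receptor of stromal cells, was the most like Nr1d2 (r = 0.993), with 108 over 0.95. Cry2 and Per3 had few genes so alike, 10 and 16 over 0.95, and Cxcl1, a chemokine, came closest to Cry2 (r = 0.995).

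Leaving out replicate 3 of both labels changed the calls. limma then called 3 of the 9 clock genes that passed the filter, all higher in knockout-labelled libraries: Per2 by 1.66, Clock by 1.28 and Nr1d2 by 1.16 on the log2 scale (adjusted p = 0.0194, 0.0291 and 0.0199). The same fit called 27.6% of all tested genes, 11.3% as higher. It sets wild type 1 and 2 against knockout 1 and 2, which lie on opposite sides of the first principal component, so label and component cannot be told apart in it. With all 6 libraries, where 0 of the 9 were called without it, adding the length slope changed the log2 fold changes from 0.85 to 0.47 for Per2, from 0.48 to 0.08 for Clock and from 0.66 to 0.44 for Nr1d2 (adjusted p = 0.939, 0.969 and 0.939 by limma). The slope was not tried in the fit without replicate 3.

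Ratios between clock genes within a library do not depend on how libraries were scaled, and 7 were computed. They do not remove a library's slope on gene length where the 2 genes differ in exon length. Arntl and Dbp have 7523 and 2993 bases, and Nr1d1 and Nr1d2 have 3077 and 5409 bases. The part of that slope in the ratios was not tested. Per1 exceeded Per2 by 65.3, 79.7 and 34.1 times in wild-type-labelled libraries 1 to 3 and by 15.3, 10.4 and 122.9 times in knockout-labelled libraries 1 to 3. Knockout 3 thus held the highest ratio and knockout 2 the lowest. Arntl stood below Nr1d1 in all 6 libraries, at 0.289 to 0.580 of its level; in many tissues the 2 genes peak at opposite times of day. Arntl was also below Dbp in 5 of 6, at 0.328, 0.311 and 0.877 against 0.633, 1.02 and 0.302 of its level. Clock exceeded Per2 by 1.30 to 7.45 times and Cry1 exceeded Cry2 by 1.12 to 1.63 times, each in all 6 libraries, and Arntl stood at 0.297 to 0.780 of the level of Clock.

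The ratio of Nr1d1 to Nr1d2 was the one of the 7 in which the labelled groups did not overlap. It was 1.62, 2.32 and 1.74 in wild-type-labelled libraries 1 to 3 and 1.36, 1.01 and 1.09 in knockout-labelled libraries 1 to 3. Every library labelled wild type therefore had relatively more Nr1d1, although 95% counting intervals overlapped across the labels. That of knockout 1 (1.19 to 1.55) overlapped those of wild type 1 (1.31 to 2.01) and wild type 3 (1.50 to 2.02). That of knockout 3 (0.85 to 1.38) overlapped that of wild type 1. The mean log2 ratio was 0.90 ± 0.27 against 0.19 ± 0.23 (SD, n = 3 each), a difference of -0.71. Leaving out single libraries gave -0.84 to -0.56. The ratio was singled out from the 7 after its values were seen and has no p-value. How often ratios of other gene pairs separate the labels was not computed, so no background share stands beside this count. With 3 libraries a group, even full separation could not give an exact two-sided permutation p under 0.1.

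**Figure D4:**
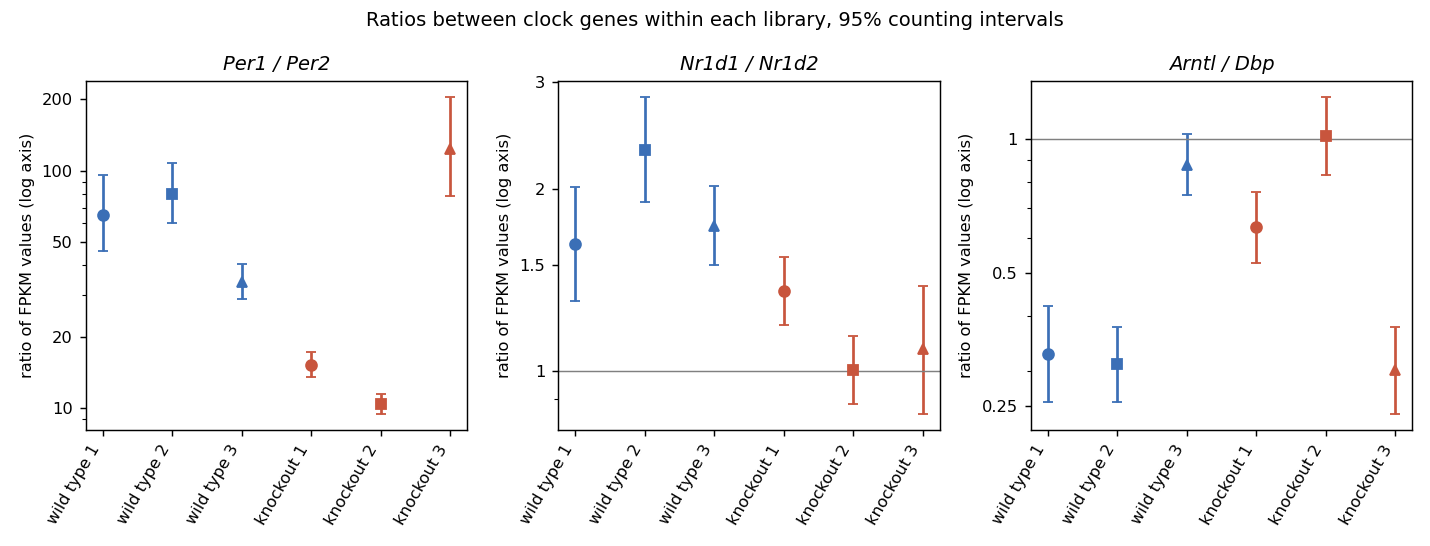
Points give the ratio of FPKM values of 2 clock genes in each library on a log axis, with 95% counting intervals (exact binomial, from recovered reads); libraries are grouped by labelled genotype on the horizontal axis. Per1 over Per2 runs from 10.4 to 122.9 with both extremes labelled knockout, whereas Nr1d1 over Nr1d2 is 1.62 or more in wild type and 1.36 or less in knockout.

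Other genes of the clock loop were read from a list of 14, of which 8 passed the filter. Of these, 0 were called in either direction and 5 were positive, with a median log2 fold change of 0.04 against -0.04 for all genes. Of those with the smallest p, 3 are given here, each as wild type 1 to 3 against knockout 1 to 3. Rora, which activates Arntl at the elements that REV-ERB proteins repress, stood at 0.711, 0.865 and 1.79 FPKM against 2.75, 4.30 and 0.716 FPKM (unadjusted p = 0.189, adjusted p = 0.993 by limma). Its highest libraries were knockout 2 and 1, as for Per2 and Nr1d2. Tipin, a partner of TIMELESS at the replication fork, stood at 16.6, 15.0 and 11.7 FPKM against 12.2, 13.9 and 14.3 FPKM. Nfil3, which competes with DBP at D-boxes, was far more abundant, at 82.7, 134.2 and 91.5 FPKM against 114.7, 96.8 and 114.9 FPKM. The groups overlapped for all 3 of these genes.

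Of 19 kinases, phosphatases and ubiquitin pathway genes that act on clock proteins, 17 passed the filter, 0 were called and 10 were positive, and the median over the 17 was 0.05. Usp2, a deubiquitinase of clock proteins, stood at 1.20, 2.44 and 1.73 FPKM against 3.22, 2.54 and 2.37 FPKM, and Prkaa1, a catalytic subunit of AMP-activated kinase, at 6.18, 7.79 and 10.7 FPKM against 9.98, 12.8 and 7.80 FPKM. The groups overlapped for both. Of 14 early genes of cAMP and serum signalling, to which Per1 also responds, all 14 passed, 0 were called and 10 were positive, and the median over the 14 was 0.37. Nr4a3, an orphan nuclear receptor, stood at 1.05, 1.31 and 1.44 FPKM against 8.69, 6.45 and 0.738 FPKM. Its relative Nr4a2 stood at 2.52, 1.94 and 3.24 FPKM against 11.7, 11.5 and 1.76 FPKM. Both were high in knockout 1 and 2 and lowest in knockout 3, as Per2 was.

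Of 12 granulosa genes that have been studied as clock-linked, 11 passed the filter, 0 were called and 4 were positive, and the median over the 11 was -0.18. The aromatase gene Cyp19a1 had levels of 14.4, 7.16 and 5.39 FPKM against 2.96, 6.23 and 3.73 FPKM. Star, which brings cholesterol into mitochondria, stood at 826.6, 721.0 and 620.4 FPKM against 488.4, 444.8 and 646.6 FPKM. The groups overlapped for both. Hsd3b1, a steroidogenic dehydrogenase named after its values were seen, was the 1 gene of this list without overlap, at 1631, 1553 and 1316 FPKM against 1112, 1122 and 1259 FPKM. Of all tested genes, 2.08% were likewise lower in every library labelled knockout. Of 13 cofactors and NAD and haem enzymes tied to the clock, 12 passed, 0 were called and 9 were positive, and the median over the 12 was 0.37. Kmt2a, a histone methyltransferase, stood at 1.16, 0.994 and 2.43 FPKM against 2.27, 5.99 and 1.29 FPKM. Alas1, the first enzyme of haem synthesis, stood at 24.4, 20.7 and 21.5 FPKM against 17.6, 17.2 and 19.9 FPKM. It was the 1 gene of this list whose groups did not overlap, beside the same 2.08% of all tested genes. Its log2 fold change was -0.27 (adjusted p = 0.993 by limma).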

How the data were processed

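Each library came as a table of FPKM values that the authors deposited with gene coordinates and exon lengths. The submitters' processing notes list HISAT2 2.0.5 and mm10; a read counter, annotation release or scaling is not given in the sources used here. Reads were recovered by dividing FPKM times length by the value of 1 read in that library; 100% of values came out whole, to within 0.01 reads. Coordinates of all 10 clock genes matched GENCODE M21, from which shared exons were taken. Same-label libraries were not duplicates: a chi-square comparison of genes with 20 or more reads exceeded sampling noise for every pair.

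Groups came from the sample titles. Genes with FPKM over 1 in at least 3 libraries were tested with limma 3.58.1 (R 4.3.3, trend option) on log2(FPKM + 1), a scale that understates changes of low genes, with Benjamini-Hochberg adjustment over all tested genes at 0.05. The fit was tested on simulated counts that held no component shared between genes like the first one here. It called 42 of 95 genes changed 2-fold, 95 of 95 changed 4-fold and 14 of 12392 unchanged genes. These shares need not hold for the libraries here. With 3 libraries a group an exact permutation test gives no p under 0.1. Counting intervals are exact at 95% and cover counting error only. Members and gene lists were chosen with earlier results of these data known. The genes named were the 10 members, the targeted gene, genes overlapping members, genes among the 3 most alike to a member, and those with the smallest p of each list (4 of the other clock genes, of which 1 is not reported here, and 2 of each further list); exceptions are stated. Proteins were not compared.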

Additional observations from a re-analysis of the deposited data

How the results depend on the processing

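Other pseudocounts, filters and scalings, limma-voom, protein-coding genes only, the length slope, the replicate block and left-out libraries were tried; median-of-ratios factors repeat the authors' own scaling and so are no separate check. No clock gene was called in any of them except with replicate 3 of both groups left out, where 3451 genes and 3 clock genes (Clock, Per2 and Nr1d2) were called; elsewhere adjusted p by limma or limma-voom ran from 0.466 to 1.0. With the filter at 0.5 FPKM and with the length slope 1 gene passed, Mir1291 both times; the cause was not tested. Leaving out 1 library called 0 genes and 0 clock genes each time. Of 168 recomputed clock gene values, 155 kept direction and side of the threshold and 10 turned. Part of the 168 could not turn: other filters, the replicate block and protein-coding genes only leave each log2 fold change as it was. The 155 therefore overstates how firm the directions are. With 1 library left out, log2 fold changes spanned -0.0055 to 0.94 for Clock (negative without knockout 2), -0.11 to 0.37 for Arntl (negative without wild type 1 or knockout 2), -0.049 to 0.42 for Per1 and -0.018 to 0.29 for Cry1 (both negative without wild type 1), -0.078 to 0.34 for Cry2 (negative without knockout 1) and -0.11 to 0.54 for Nr1d1 (negative without knockout 1 or 2). Under the length slope Arntl came to -0.12 and Nr1d1 to -0.079. Per2, Per3, Nr1d2 and Dbp kept their sign in every fit run. For Gm12840 (-0.03) the value was 0.0047 under library totals, 0.035 under limma-voom, 0.15 under the length slope and -0.47 with replicate 3 of both groups left out; without single libraries it spanned -0.27 to 0.28. With the replicate block, 0 genes and 0 clock genes were called (27 genes at an unadjusted p under 0.05). Same-numbered libraries deviated oppositely (r of -0.42, -0.67 and -0.89). Whether the numbers paired libraries cannot be read from these values, since most of the spread between libraries lay along the first component. Of 56 recomputed ratio differences 2 moved by more than the replicate spread; those alternatives were chosen after seeing the data. Read numbers limit Per2 and Per3, with 19 and 39 reads in their lowest libraries.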
